A study of Mus musculus with 2040 samples.

Results

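Apoe, Clu, Fabp5, Fabp7, Acsbg1, Acsl3, Abca1, Lcat and Cpt1a encode proteins that carry, bind, activate or import lipids, and their levels were followed across single brain cells. These 9 genes were taken by name, with earlier results of these data known, and all 9 were among the 32245 gene columns of the table. The study sorted single cells that expressed the yellow fluorescent protein SYFP2 from brains of C57Bl/6J mice and sequenced their polyA RNA. Each mouse had received 1 adeno-associated virus (AAV) in which a named enhancer or promoter drives the reporter, so the vector decided which cells were sampled. The table held 2040 cells from 47 mice and 30 vectors: 1785 cells of 41 mice from VISp (primary visual cortex), 81 cells of 2 mice from CBX (cerebellar cortex) and the rest from 4 mice of MB/HB (midbrain and hindbrain). Age and sex of the mice were not used here. Both CBX mice carried eHGT_375m, and the MB/HB mice carried MGT_E160m or eHGT_381h, 2 mice each. VISp cells came from 27 other vectors, so tissue and vector cannot be told apart.

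Cells were grouped by clustering without the lipid genes, and clusters were named from marker genes. Astrocyte-like cells numbered 739 from 19 VISp mice and 81 from 2 CBX mice, and each of the 4 MB/HB mice gave 32 to 41. VISp also gave 941 oligodendrocyte-like cells, with 22 mice holding at least 10 of them, and 84 neuron-like cells, with 3 mice holding at least 10. The 3 VISp neuron mice carried MBP_promoter (2 mice) or eHGT_374m (1 mouse). Cells held between 57873 and 1455022 reads (median 434101). Levels are in CPM, read counts scaled to 1000000 per cell. All 12 astrocyte markers were read in every astrocyte-like group, with sums per mouse of 31416 to 41497 CPM in VISp, 31702 to 40090 in MB/HB and 38956 to 40501 in CBX. The 12 oligodendrocyte markers summed to 68156 to 92493 CPM per mouse in the oligodendrocyte-like cells. RNA of other types was present in part of the cells: 12 of 12 astrocyte markers had a read in VISp oligodendrocyte-like cells, with sums of 224.5 to 1279 CPM. Oligodendrocyte markers summed to 171.1 to 1311 CPM per mouse in VISp astrocyte-like cells, 839 to 6262 in MB/HB and 1935 to 2224 in CBX, where Cldn11 and Ugt8a were at 0. The astrocyte-like cells of the tissues lay in different clusters: 78 of the 81 CBX cells were in a cluster with 6 MB/HB cells and no VISp cell, and 140 MB/HB cells were in a cluster with 2 VISp cells. The other VISp cells lay in 3 further clusters. The CBX cluster had reads of 12 of the 12 astrocyte markers, and 0 of these were among its 10 leading genes by fold.

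Brain lipid traffic runs largely apart from that of the blood. Astrocytes secrete apolipoprotein E, the transporter ABCA1 loads it with cholesterol and phospholipid, and the enzyme LCAT esterifies the cholesterol in the particle, which neurons and other glia can take up. Inside cells, fatty acid-binding proteins carry fatty acids, acyl-CoA synthetases activate them, and CPT1A passes activated chains to the carnitine shuttle for mitochondrial oxidation. On mm10 (GENCODE M21 gene models), Apoe lies at chr7:19696109-19699188, Clu at chr14:65968483-65981547, Fabp5 at chr3:10012548-10016607 and Fabp7 at chr10:57784881-57788450. Acsbg1 lies at chr9:54604877-54661870, Acsl3 at chr1:78657825-78707743, Abca1 at chr4:53030787-53159895, Lcat at chr8:105939551-105943382 and Cpt1a at chr19:3322334-3385733. Lcat overlaps the antisense gene Gm16156 and Acsl3 overlaps Utp14b on the same strand. The strand setting of the counting is not given in the sources used here, so reads of these pairs cannot be told apart. Fabp5 has a named copy, Fabp5l2, that could share its reads.

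Promoter sequence is shown for members whose level in CBX differed from VISp, since these moved in opposite directions in the same cells. Sequences are from RefSeq (GRCm38.p6, the assembly called mm10), end just before the annotated start or before an annotated exon, and are written 5′ to 3′ on the gene's strand. Of the 9 genes, 7 had an entry. Clu and Fabp5, also lower in CBX, had none, so the lower genes are shown by Acsl3 alone. Capitals mark CCAAT on either strand (ATTGG is its reverse complement) and, in Acsl3, also the GC box GGGCGG (reverse complement CCGCCC). Fabp7 (chr10:57784673-57784880, plus strand), Lcat (chr8:105943403-105943589, minus strand) and Acsbg1 (chr9:54661886-54662135, minus strand) were higher in CBX. Acsl3 (chr1:78657575-78657824, plus strand) was lower.
Fabp7: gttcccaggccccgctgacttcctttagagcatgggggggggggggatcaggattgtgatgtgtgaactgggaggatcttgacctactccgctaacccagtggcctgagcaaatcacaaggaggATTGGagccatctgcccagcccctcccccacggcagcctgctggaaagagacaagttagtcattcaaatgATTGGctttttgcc
Lcat: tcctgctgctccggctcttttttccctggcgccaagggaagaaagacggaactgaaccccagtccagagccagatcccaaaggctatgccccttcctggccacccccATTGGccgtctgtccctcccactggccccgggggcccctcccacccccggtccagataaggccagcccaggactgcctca
Acsbg1: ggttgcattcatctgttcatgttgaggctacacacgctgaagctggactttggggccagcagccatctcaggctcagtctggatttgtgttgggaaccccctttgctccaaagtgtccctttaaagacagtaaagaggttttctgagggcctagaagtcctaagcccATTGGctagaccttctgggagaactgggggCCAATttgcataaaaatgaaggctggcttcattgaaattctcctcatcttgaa
Acsl3: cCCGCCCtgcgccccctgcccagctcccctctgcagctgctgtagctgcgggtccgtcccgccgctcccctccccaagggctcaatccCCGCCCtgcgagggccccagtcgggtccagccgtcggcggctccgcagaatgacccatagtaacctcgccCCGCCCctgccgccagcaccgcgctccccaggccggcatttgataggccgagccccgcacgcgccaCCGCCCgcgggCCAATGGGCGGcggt
Fabp7 held 2 CCAAT matches, the nearer at positions -56 to -52 from the RefSeq start, and 29.6% of 32851 promoters held the motif in a window of that length. Lcat held 1 at -80 to -76 (28.1% of promoters), and Acsbg1 held 2, the nearer at -53 to -49 (33.8% of promoters). The Acsl3 promoter was 75.6% G or C, against a median of 52.4% over all promoters. It held 5 GC boxes, besides 1 CCAAT that ends where a GC box begins. At least 1 GC box was found in 32.7% of promoters, and the other shares of promoters also count those with at least 1 match. The other 6 motifs searched on both strands were the TATA box TATAAA (12.4% of promoters), the sterol regulatory element TCACNCCAC (1.05%), the SOX site ACAATG (10.7%), the nuclear receptor repeats DR4 (0.0152%) and DR1 (0.0335%) and the NFI palindrome (0.0365%). No match to these 6 lay in the 4 windows printed, and a match is only a run of letters.

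Astrocyte-like cells of the cerebellar cortex held another balance of these genes than those of the visual cortex: Fabp7, Lcat and Acsbg1 were higher, Fabp5, Acsl3 and Clu were lower, and Apoe did not pass the test. Levels are the mean CPM over the cells of a mouse, and tests were made with limma on log2(mean CPM + 1) with the mouse as the unit and p-values adjusted over all 3485 genes tested. Of the 9 genes, 6 passed at an adjusted p under 0.05, against 11.8% of all genes tested. They were 3 higher and 3 lower, against 5.37% and 6.40% of all genes. Where genes had to reach 10 CPM in 2 mice, 6 of the 9 and 14.6% of all genes passed. With the mean of log2 values over cells, which gives cells without a read more weight, 22.5% of all genes were called higher and 3.501% lower, and 5 of the 9 genes passed. Under that setting the differences were 3.61 for Fabp7, 2.81 for Lcat and -3.26 for Fabp5. For the same 6 genes the mouse values of CBX and VISp did not overlap, which held for 13.8% of all genes tested. The median difference of the 9 genes was -0.82 on the log2 scale, against -0.02 over all genes.

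**Figure D1:**
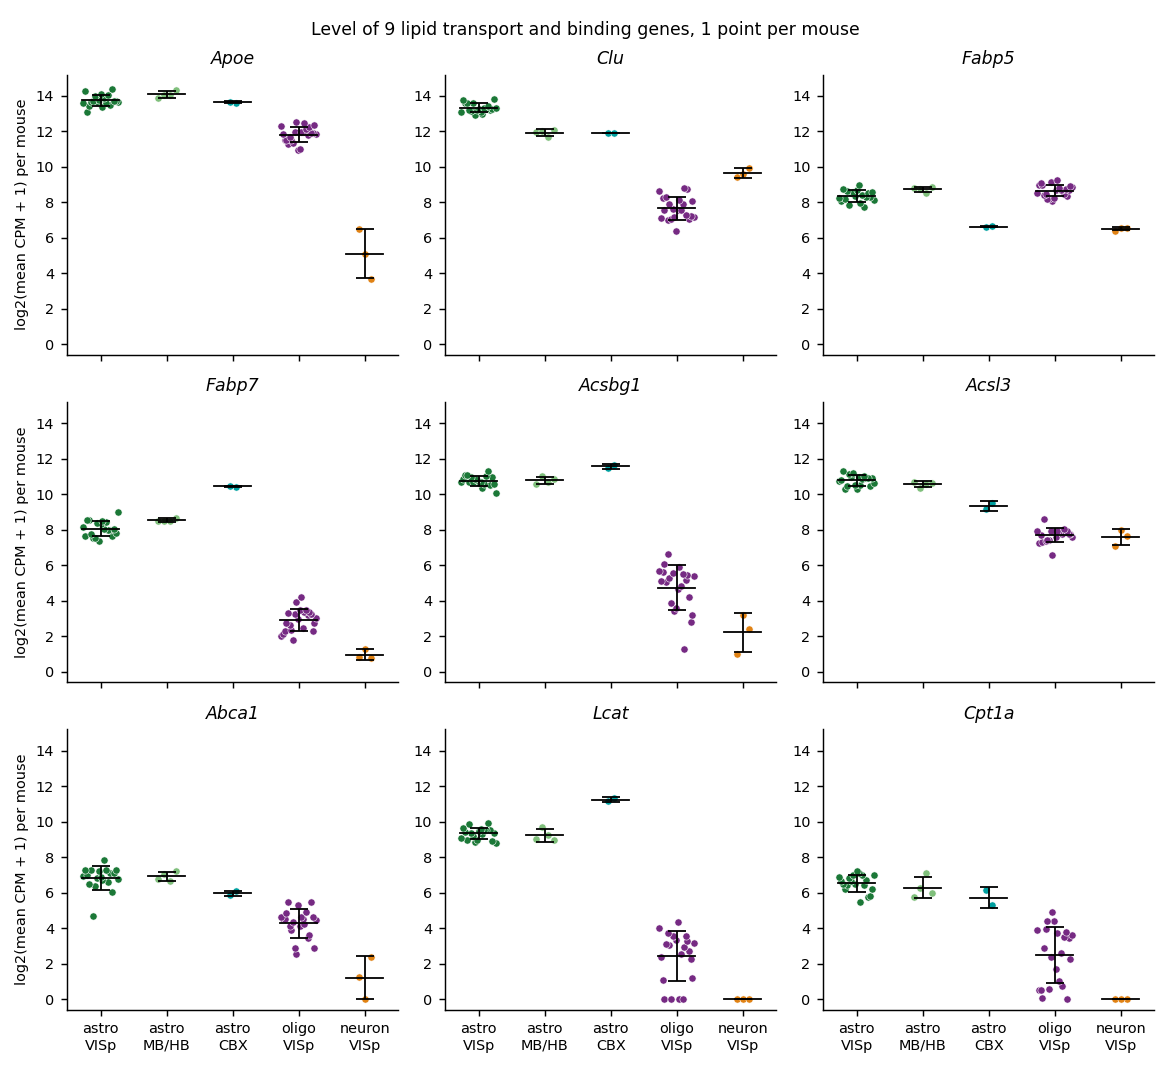
Mean CPM of each gene per mouse on the log2(CPM + 1) scale (vertical axis) in astrocyte-like cells of VISp (19 mice), MB/HB (4) and CBX (2) and in oligodendrocyte-like (22) and neuron-like (3) cells of VISp. Points are mice, with mean and SD as bars (n = 2 in CBX). Fabp7 and Lcat stand highest in CBX, the Fabp5 ranges of oligodendrocyte-like and astrocyte-like cells of VISp overlap, and Clu is higher in neuron-like than in oligodendrocyte-like cells.

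Among the secreted carriers, Apoe, the main apolipoprotein of the brain, stood at 13110 and 12313 CPM in the 2 CBX mice. In VISp it ranged from 8847 to 21598 CPM over 19 mice, with a median of 13348, so both CBX mice lay inside the VISp range. The difference was -0.11 ± 0.22 (SE) on the log2 scale (limma, adjusted p = 0.856), with a 95% interval of -0.55 to 0.33. Clu encodes clusterin, also called apolipoprotein J, a secreted chaperone found on lipoprotein particles. Its level was 3825 and 3829 CPM in CBX, while the VISp mice ran from 7824 to 14525 with a median of 9833. All VISp mice were thus above both CBX mice, and Clu was 2.67-fold lower in CBX (difference -1.41 ± 0.19, adjusted p = 7.44e-07). Of the particle's partners, Lcat stood at 2563 and 2259 CPM in CBX against 447.5 to 953.5 in VISp (median 667.3). Lcat was 3.74-fold higher in CBX (1.90 ± 0.23, adjusted p = 2.25e-07), with no overlap. Abca1 was at 65.8 and 56.4 CPM in CBX and at 24.8 to 231.9 in VISp (median 122.2), a range that includes both CBX mice. Its difference of -0.87 ± 0.41 did not pass (adjusted p = 0.212), and it did pass where mice with fewer than 20 cells were left out (-0.99, adjusted p = 0.0227).

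The 2 fatty acid-binding proteins went opposite ways. Fabp7, the brain form that also marks radial glia, was at 1415 and 1358 CPM in CBX and at 164.4 to 501.7 in VISp (median 258.7). It was 5.20-fold higher in CBX (2.38 ± 0.28, adjusted p = 8.82e-08). Fabp5, the epidermal form, was at 100.3 and 95.7 CPM in CBX and at 209.6 to 510.5 in VISp (median 320.98), 3.31-fold lower in CBX (-1.73 ± 0.23, adjusted p = 9.34e-07). No CBX mouse reached the VISp range for either gene. These levels are means over cells, and the share of cells with a read differed in the same direction. After thinning every cell to 50000 reads, Fabp7 had a read in at least 97.3% of cells of each CBX mouse, against a median of 78.7% (57.7% to 91.6%) over the VISp mice. For Fabp5 the shares were 54.7% and 62.6% in CBX and a median of 92.5% (76.2% to 97.7%) in VISp. Without thinning, the medians over mice were 98.7% and 80.95% for Fabp7 and 61.5% and 92.9% for Fabp5.

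Of the enzymes that activate or import fatty acids, Acsl3, a long-chain acyl-CoA synthetase of the endoplasmic reticulum and lipid droplets, was at 567.1 and 730.9 CPM in CBX. VISp mice ran from 1231 to 2537 (median 1882), and Acsl3 was 2.75-fold lower in CBX (-1.46 ± 0.21, adjusted p = 3.54e-06). Acsbg1, the bubblegum acyl-CoA synthetase of very long chains, was at 3231 and 2827 CPM in CBX, above the VISp range of 1065 to 2536 (median 1678). Its 1.74-fold difference (0.80 ± 0.20, adjusted p = 0.00597) did not pass without either CBX mouse. Without the mouse at 3231 CPM it was 0.71 (adjusted p = 0.178), and without the mouse at 2827 it was 0.90 (adjusted p = 0.0577). The lone CBX mouse is then assumed to vary like the mice of the other tissues. The difference was 0.81 with 1 mean per vector (adjusted p = 0.0926) and 0.82 with the mean of log2 values over cells (adjusted p = 0.0761). Cpt1a, the liver form of carnitine palmitoyltransferase 1, was at 69.4 and 38.6 CPM in CBX and 44.1 to 148.2 in VISp (median 98.2). One CBX mouse lay inside the VISp range, and the difference of -0.82 ± 0.36 did not pass (adjusted p = 0.170).

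In MB/HB, Clu was the one gene of the 9 that passed the test against VISp, beside 12.3% of all genes tested (6.37% higher and 5.94% lower). Its level was 3915 and 3222 CPM in the MGT_E160m mice and 4093 and 4372 in the eHGT_381h mice. All 4 lay below the lowest VISp mouse, a separation that 3.62% of all genes tested showed, and Clu was 2.63-fold lower (-1.40 ± 0.14, adjusted p = 3.45e-09). The VISp mice are the same as in the comparison with CBX. Oligodendrocyte markers were high in the mouse with 3222 CPM of Clu (6262 CPM), and the mouse with 4372 CPM of Clu held 2345 CPM of mural and 1212 CPM of endothelial markers. Leaving out each mouse in turn gave a Clu difference between -1.45 and -1.31, and leaving out cells with RNA of another type gave -1.38, each past the threshold.

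The other 8 genes had MB/HB mice inside the VISp range. Apoe was at 17065, 14901, 16749 and 20924 CPM (0.33 ± 0.16, adjusted p = 0.195). Fabp5 was at 372.1, 443.8, 428.7 and 469.9 CPM (0.39 ± 0.17, adjusted p = 0.149) and Fabp7 at 365.3, 362.3, 354.3 and 410.8 (0.49 ± 0.21, adjusted p = 0.131). All 4 mice lay above the VISp median for these 3 genes, and none of the 3 passed the test. For Acsbg1 (2116, 1631, 1856 and 1532 CPM), Acsl3 (1588, 1303, 1522 and 1662 CPM), Abca1 (107.6, 98.1, 132.1 and 147.6 CPM) and Cpt1a (75.6, 62.1, 137.2 and 53.7 CPM) the differences were 0.03, -0.23, 0.10 and -0.26, with adjusted p from 0.403 to 0.924. Lcat was at 600.5, 490.98, 844 and 514.2 CPM, with a difference of -0.10 ± 0.17 (adjusted p = 0.767). Its cells were more uneven: 53.1% to 82.4% of cells of an MB/HB mouse had a read at 50000 reads, against 74.996% to 98.1% in VISp. On the mean of log2 values over cells Lcat was lower in MB/HB by -1.51 (adjusted p = 0.00221). Within the main MB/HB cluster Lcat ran from 417.3 to 600.5 CPM over 4 mice, so the mouse at 844 CPM includes cells outside it. In the CBX cluster, which held 6 MB/HB cells, Lcat ran from 2320 to 3192 CPM over 3 mice. The Lcat difference without those 6 cells was not tested.

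**Figure D2:**
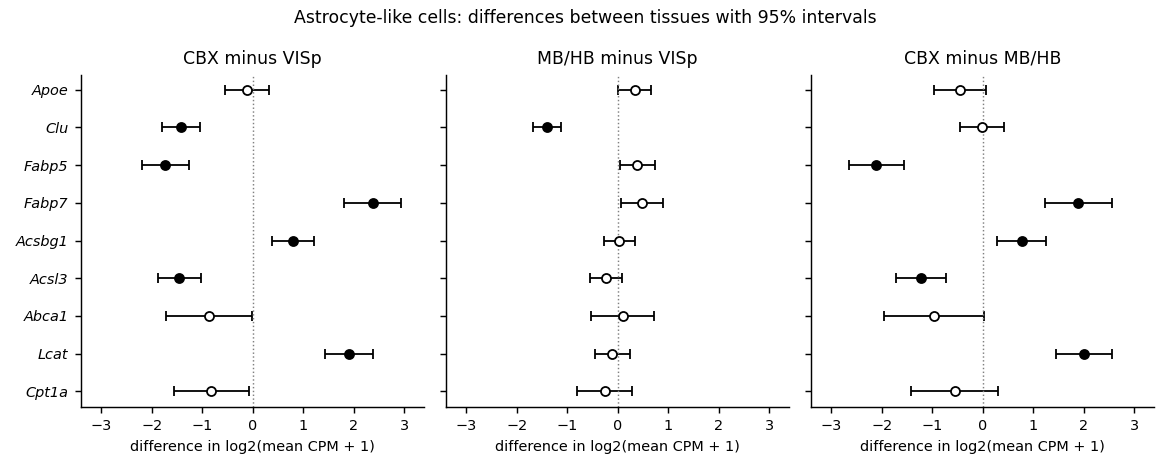
Differences between tissues in astrocyte-like cells, in log2(mean CPM + 1) (horizontal axis), with unadjusted 95% intervals from limma. Filled points passed an adjusted p of 0.05. CBX differs from VISp in 6 genes, MB/HB differs from VISp in Clu, and CBX differs from MB/HB in 5 genes.

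Set directly against MB/HB, CBX had more Fabp7 (3.71-fold, adjusted p = 9.14e-05), Lcat (4.02-fold, adjusted p = 2.41e-06) and Acsbg1 (1.71-fold, adjusted p = 0.0337) and less Fabp5 (4.33-fold lower, adjusted p = 7.34e-07) and Acsl3 (2.35-fold lower, adjusted p = 6.05e-04). These were 5 of 9 genes, against 8.72% of all genes tested, and the 3 higher and 2 lower stand beside 4.02% and 4.71%. The same CBX mice enter this comparison and the one with VISp. The Acsbg1 difference of 0.77 stayed between 0.67 and 1.01 in the settings where its call was lost. It was 0.67 (adjusted p = 0.287) and 0.87 (0.132) without the CBX mouse at 3231 or at 2827 CPM, where the lone CBX mouse is again assumed to vary like the others. It was 0.73 (0.0710) without the MB/HB mouse at 1631 CPM, 0.70 (0.0745) without the one at 1532 CPM and 0.73 (0.0517) without cells with RNA of another type. With 1 mean per vector it was 0.77 (0.236), and with the mean of log2 values over cells 1.01 (0.0548). The latter setting gave larger differences for Lcat (4.32 against 2.01), Fabp7 (3.96 against 1.89) and Fabp5 (-3.39 against -2.11), with 24.6% of all genes called higher and 3.19% lower. For Clu the difference between CBX and MB/HB was -0.02 ± 0.22 (adjusted p = 0.997), with an interval of -0.46 to 0.42. Mouse values did not overlap for 7 of the 9 genes, including Apoe (-0.44, adjusted p = 0.327) and Abca1 (-0.96, adjusted p = 0.251), a separation that 28.1% of all genes tested showed between these 2 and 4 mice.

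Per kilobase of annotated exons, Apoe was the highest of the 9 genes in astrocyte-like cells of all 3 tissues, with median levels over mice of 6243 CPM per kb in VISp, 7908 in MB/HB and 5945 in CBX. In VISp, Clu followed (2861 CPM per kb), then Lcat (497.2), Acsbg1 (465.5), Acsl3 (431.9), Fabp7 (206.96), Fabp5 (89.98), Cpt1a (12.9) and Abca1 (11.8). From Lcat to Fabp5 the ranges of neighbours over mice overlapped: Fabp7 ran from 131.5 to 401.3 and reached those of Lcat, Acsbg1, Acsl3 and Fabp5. The last 2 could not be placed apart, since Cpt1a ran from 5.77 to 19.4 and Abca1 from 2.40 to 22.4 CPM per kb. In CBX, Lcat ranked after Apoe with 1797 CPM per kb, and Clu (1113) and Fabp7 (1109) were level. In MB/HB the order after Apoe was Clu (1165), Acsbg1 (483.7), Lcat (415.3), Acsl3 (356.9) and Fabp7 (291.1), where the ranges of neighbours overlapped from Acsbg1 to Fabp7. Acsbg1 (425.2 to 587.1) and Acsl3 (299.1 to 381.5) did not overlap. Lengths are the union of all annotated exons, used or not, such as 3567 bases for Fabp5 and 1250 for Fabp7. Ranks therefore depend on the annotation. In CPM, Fabp5 (median 320.98) stood above Fabp7 (258.7) in VISp, with overlapping ranges.

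Oligodendrocyte-like cells of VISp had less of 8 of the 9 genes than astrocyte-like cells of VISp, and more of Fabp5. All 9 passed the test over 3592 genes, against 58.4% of all genes tested (22.2% higher and 36.2% lower), and their median difference was -4.05, against -0.21 over all genes. Values of the mice did not overlap for 7 of the 9 genes, which held for 12.6% of all genes tested. The 12 astrocyte markers had differences between -8.13 and -5.46 with a median of -7.01, a range that includes Lcat (-6.89), Acsbg1 (-6.02) and Clu (-5.66). With the mean of log2 values over cells the Clu, Acsbg1 and Acsl3 differences were larger (-9.20, -9.04 and -4.68). Cells of these 2 classes came from different vectors, so class and vector cannot be told apart here.

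Apoe was the gene that oligodendrocyte-like cells kept at the highest level, at 1936 to 5921 CPM over 22 mice (median 3753). This was 3.799-fold below VISp astrocyte-like cells (-1.93 ± 0.15, adjusted p = 1.37e-16), and every mouse gave a read in at least 95.2% of cells at 50000 reads. The astrocyte marker Aqp4, a water channel, had a read in 3.61% of the 941 cells (exact 95% interval 2.51% to 5.01%), and Slc1a2, a glutamate transporter, in 54.5%. In VISp astrocyte-like cells the median over cells was 465.2 CPM for Aqp4 and 4335 for Slc1a2, against 12017 for Apoe. Of the 12 astrocyte markers, 8 had a median of at least 10 CPM over the oligodendrocyte mice. The part of astrocyte RNA in the Apoe level was not tested. Fabp5 ran from 270.3 to 600.5 CPM (median 411.8) against 209.6 to 510.5 in astrocyte-like cells (median 320.98), 1.23-fold higher (0.30 ± 0.10, adjusted p = 0.00760). The ranges overlapped. Cell names began with AB (38 mice) or SM (9 mice), taken here as the plate series. Of the VISp mice tested, 3 astrocyte and 6 oligodendrocyte mice were SM. Within plates of the AB series the Fabp5 difference of 0.26 did not pass (adjusted p = 0.0675).

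Clu was at 83.1 to 445.7 CPM (median 188.2), 50.6-fold below astrocyte-like cells (-5.66 ± 0.15, adjusted p = 2.51e-35), and a read was present in a median of 49.3% of cells per mouse. Acsl3 was at 93 to 380.2 CPM (median 215.1), 8.58-fold lower. Abca1 was at 4.79 to 43.4 CPM (median 21.3), 5.89-fold lower, with the lowest astrocyte mouse (24.8 CPM) inside that range. Cpt1a was at 0 to 28.9 CPM (median 5.67), 16.6-fold lower.

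The remaining 3 genes were also low in oligodendrocyte-like cells. Acsbg1 was at 1.44 to 97.6 CPM (median 34.5, 64.95-fold lower), Fabp7 at 2.39 to 17.3 CPM (median 7.05, 35.2-fold lower) and Lcat at 0 to 19.3 CPM (median 6.94, 118.4-fold lower). The share of all 941 cells with a read was 4.99% for Lcat (exact interval 3.69% to 6.59%). It was 8.82% for Fabp7 (7.09% to 10.8%) and 7.33% for Cpt1a (5.75% to 9.19%). Among astrocyte markers it was 3.61% for Aqp4 and 54.5% for Slc1a2. Median depth was 442954 reads in these cells and 431572 in VISp astrocyte-like cells. For Acsbg1 the share depended on depth, with a median per mouse of 37.6% as deposited and 14.3% at 50000 reads. The part that RNA from astrocytes has in these low levels was not tested.

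**Figure D3:**
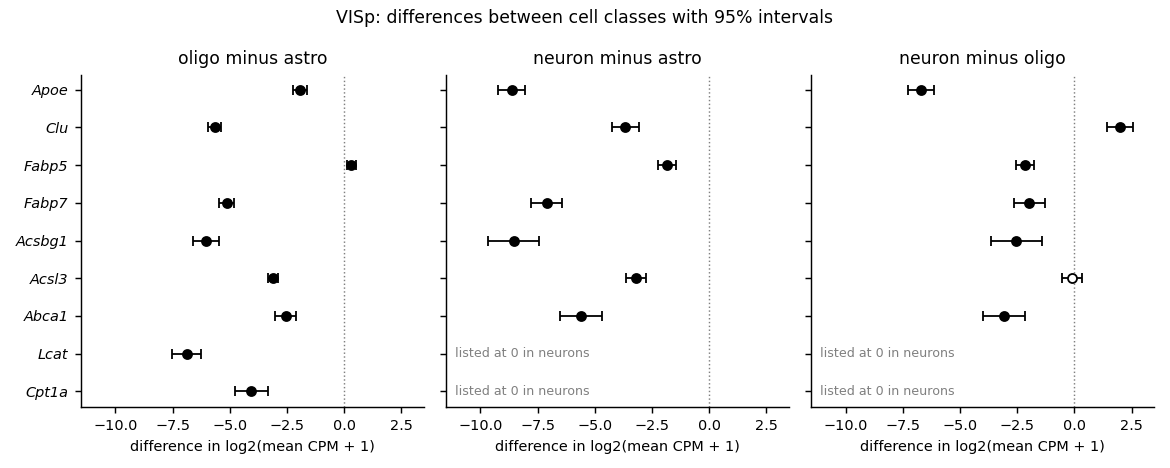
Differences between cell classes in VISp, in log2(mean CPM + 1) (horizontal axis), with unadjusted 95% intervals from limma. Filled points passed an adjusted p of 0.05. Fabp5 lies just right of 0 for oligodendrocyte-like minus astrocyte-like cells, Clu lies right of 0 for neuron-like minus oligodendrocyte-like cells, and Lcat and Cpt1a, listed at 0 in neuron-like cells, are not drawn.

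Neuron-like cells of VISp were low in all 9 genes relative to astrocyte-like cells, yet Clu, Acsl3 and Fabp5 were read in nearly every cell. The 9 genes all passed and were lower, against 47.5% of all genes tested (28.3% higher and 19.2% lower, or 63.1% and 11.2% with the mean of log2 values over cells), and no member's mouse values overlapped, which held for 28.5% of all genes tested. Clu was at 673.6, 780.6 and 983.3 CPM in the 3 mice (first both MBP_promoter mice, then the eHGT_374m mouse), 12.7-fold below astrocyte-like cells (-3.67 ± 0.29, adjusted p = 1.97e-15). It had a read in all 84 neuron-like cells (exact interval 95.7% to 100%), and it was 3.98-fold higher than in oligodendrocyte-like cells (1.99 ± 0.29, adjusted p = 6.45e-08). Centred on the median gene, which moved by 0.33 between neuron-like and oligodendrocyte-like cells, that difference was 1.63. Acsl3 was at 254.96, 196.3 and 136.7 CPM, 9.29-fold below astrocyte-like cells. Against oligodendrocyte-like cells its difference of -0.11 ± 0.21 did not pass (adjusted p = 0.735), with an interval of -0.55 to 0.32. Fabp5 was at 94.4, 84 and 93.1 CPM, 3.58-fold below astrocyte-like and 4.42-fold below oligodendrocyte-like cells. Yet Fabp5 had a read in all 84 neuron-like cells, against 91.5% of VISp astrocyte-like cells. The neuron-like cluster had a median of 8447 genes detected per cell, against 4086 and 4761 in the 2 main VISp astrocyte-like clusters. Their median reads were 424617, 425929 and 436802. The part of this in the shares of cells with a read was not tested.

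Apoe was at 33.6, 12.01 and 89.5 CPM in neuron-like cells, 398.4-fold below astrocyte-like cells (-8.64 ± 0.29, adjusted p = 5.38e-30) and 104.9-fold below oligodendrocyte-like cells. A read was present in 58.3% of the 84 cells (exact interval 47.1% to 69%), beside 61.9% for Slc1a2 and 10.7% for Aqp4. The 12 astrocyte markers summed to 200.3 to 530.7 CPM in these mice, with Gjb6 and Slc7a10 at 0. Over 6 mice with at least 3 cells in the neuron-like cluster, which includes MB/HB cells, Apoe ran from 12.01 to 4708 CPM (median 71.3). Of the 84 VISp cells, 15 carried RNA of another type. The part of such RNA in the Apoe level was not tested. Acsbg1 (8.26, 1.03 and 4.25 CPM), Fabp7 (1.45, 0.698 and 0.758 CPM) and Abca1 (1.34, 4.26 and 0 CPM) were near the value of single reads. Lcat and Cpt1a were listed at 0 in all 3 mice, so no fold is given. Over all 84 cells, which include mice with fewer than 10 neuron-like cells, 7 had a read of Lcat and 6 had a read of Cpt1a.

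Against oligodendrocyte-like cells, 8 of 9 genes passed, 7 lower and Clu higher, against 47.6% of all genes tested (32.8% higher and 14.8% lower). Mouse values did not overlap for 5 of the 9, beside 30.5% of all genes. Of all genes called in that comparison 68.97% were higher in neuron-like cells, and 56.96% after centring on the median gene. The direction of the 8 called genes was the same after centring. With the mean of log2 values over cells, 4 of 9 passed, and 64.4% of all genes were called higher and 8.32% lower. Under that setting Fabp7, Acsbg1, Abca1, Lcat and Cpt1a did not pass. Acsl3 did, as higher in neuron-like cells (1.205, limma, adjusted p = 0.0147), with a sign opposite to its main difference. At a pseudocount of 10 CPM Cpt1a did not pass (-0.73, adjusted p = 0.0538, against -2.49), which left 7 of 9. The neuron side of that comparison had 3 mice.

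Some mice gave both classes, so the contrast could also be seen within a mouse. In the eHGT_374m mouse, 26 astrocyte-like cells had 19459 CPM of Apoe and 13 neuron-like cells had 89.5 CPM. Clu was 14525 and 983 CPM, and Acsbg1 1499 and 4.25 CPM, in the same order. In the MBP_promoter mice, oligodendrocyte-like cells had 5921 and 5712 CPM of Apoe while neuron-like cells of the same mice had 33.6 and 12.01. For Clu the order was the other way in both mice: 132.7 and 151.4 CPM in oligodendrocyte-like cells and 673.6 and 780.6 in neuron-like cells. A fit with these 2 mice as blocks (limma, chosen after seeing the data) tested 7 of the 9 genes and called 4: Apoe (-8.10, adjusted p = 7.49e-05), Clu (2.35, 4.28e-04), Fabp5 (-2.36, 7.76e-04) and Abca1 (-2.54, 0.0443). Fabp7 (-1.52, 0.0998), Acsbg1 (-1.11, 0.323) and Acsl3 (0.21, 0.420) did not pass, and 43.2% of 2909 genes did.

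**Figure D4:**
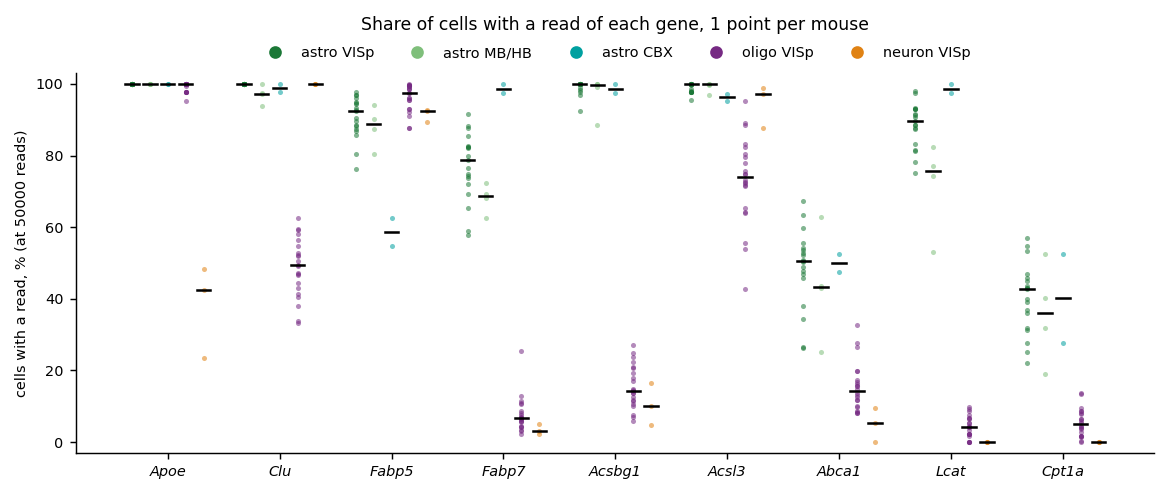
Share of cells of a mouse with at least 1 read of each gene after thinning each cell to 50000 reads (vertical axis, percent), with mice as points and the median as a bar. Fabp5 is read in fewer cells in CBX (54.7% and 62.6%) than elsewhere, the medians of Abca1 and Cpt1a lie between 36.1% and 50.6% in astrocyte-like cells, and Clu is read in nearly every neuron-like cell.

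Within VISp astrocyte-like cells the genes differed in how evenly they were read. Apoe and Clu had a read in all 739 cells, and the middle of the cells spanned 9093 to 16788 CPM (quartiles) for Apoe and 6631 to 12878 for Clu. Abca1 and Cpt1a were patchy. A read of Abca1 was present in a median of 50.6% of cells per mouse at 50000 reads in VISp, 43.2% in MB/HB and 50.0% in CBX. For Cpt1a the medians were 42.6%, 36.1% and 40.2%, and where a read was present the median level over VISp mice was 211.4 CPM.

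Over the 739 VISp astrocyte-like cells, with each mouse's mean taken out, Apoe and Clu varied together more than any other pair of the 9 genes (Pearson r = 0.78 on the log2 scale). Apoe and Fabp5 came next (r = 0.24). All values of a cell share its library, and Apoe (r = -0.24) and Clu (r = -0.20) were lower in cells with more genes detected. In the 941 oligodendrocyte-like cells the Apoe and Clu pair gave r = 0.12, and the highest pair was Clu with Acsbg1 (r = 0.20).

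The clusters, which were made without these genes, separated levels further, and are given as a description. An astrocyte-like cluster of 52 cells had a median over mice of 26256 CPM of Apoe, 16739 of Clu and 603.4 of Fabp5, and its cells had a median of 2806 genes detected. The 2 main VISp astrocyte-like clusters had 11809 and 13963 CPM of Apoe, with 4086 and 4761 genes detected. Medians of genes detected were 5419 in the CBX cluster and 3931 in the main MB/HB cluster. Among oligodendrocyte-like cells, a cluster of 79 cells led by Enpp6, a gene of newly formed oligodendrocytes, had 879 CPM of Apoe and 79.7 of Clu. The 3 other oligodendrocyte-like clusters had 2504 to 4258 CPM of Apoe.

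Differences among vectors within VISp did not pass the test for any of the 9 genes. Among vectors with at least 2 astrocyte mice, limma's F test called none of the 9 (adjusted p from 0.976 to 0.997) and 0.00% of 3252 genes, with 4.7% of genes at an unadjusted p under 0.05. Among vectors with at least 2 oligodendrocyte mice it called none of the 9 (adjusted p from 0.741 to 0.933) and 0.00% of 2900 genes, with 5.69% at an unadjusted p under 0.05. Apoe had the lowest unadjusted p of the 9 in oligodendrocyte-like cells (p = 0.0181, limma, adjusted p = 0.741). Both MBP_promoter mice (5921 and 5712 CPM) were above all other oligodendrocyte mice, and the 3 mice of eHGT_395h ran from 2463 to 3686 CPM. With 2 or 3 mice per vector, such a test can miss a difference.

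Genes with the most similar pattern were ranked over all 51 values of a mouse and class among 3683 genes, by Pearson's r of log2(mean CPM + 1). The panel held every listed marker and lipid gene but only a random draw of other genes, so listed genes were favoured. A closer gene outside the panel would not be seen. The 51 values pool astrocyte-like, oligodendrocyte-like and neuron-like cells, so r includes the differences between classes given above. A high r with a marker that named the classes is therefore no separate result. Acsbg1 was most like Gjb6, Ntsr2 and S1pr1 (r = 0.97 each), which are astrocyte markers of the list used to name the cells. Lcat was most like Ntsr2 (0.97), Tlcd1 (0.96) and Slc7a10 (0.96), and Cpt1a was most like Gja1 (0.94), Gjb6 (0.91) and Ndrg2 (0.91). Fabp7 was most like Tlcd1 (0.97), Agpat5 (0.96) and Ndrg2 (0.96). Apoe was most like Tcn2 (0.95), Gramd3 (0.94) and Acadl (0.92), and Clu like Scg3, Slitrk2 and Lsamp (0.97 each). Acsl3 was most like Bcan (0.97), Slc27a1 (0.96) and Dbx2 (0.96), and Abca1 like Atp6v0e (0.92), Pbxip1 (0.90) and Eci1 (0.90). Fabp5 had the weakest likeness, with Olig1 (0.84), Npc1 (0.78) and Car2 (0.77), the first and last of which are high in oligodendrocytes.

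The wider lipid pathways also differed between the astrocyte-like cells of CBX and VISp. Of 95 further genes in 6 lists, 91 were tested and 25.3% passed, 7 higher and 16 lower, beside the 11.8% of all genes. The lists were chosen with earlier results of these data known, so such shares are a description. Of lipoprotein and cholesterol genes, 3 of 21 were higher and 3 lower: Pltp, the phospholipid transfer protein, was at 1112 to 1424 CPM in CBX and 0 to 13.96 in VISp, and Apod at 136.7 to 148.1 and 0 to 10.52. Apod is abundant in the oligodendrocyte-like cells here (3116 to 7426 CPM), and oligodendrocyte markers summed to 1935 to 2224 CPM in CBX against 171.1 to 1311 in VISp, with 1 of 11 tested higher and none lower. The part of such RNA in the Apod level was not tested. The lysosomal cholesterol transporter Npc1, at 42.3 to 45.2 CPM in CBX, was lower (-1.64). Of receptors, 1 of 11 was higher and 3 lower, among them Lrp8 (-4.88), the apolipoprotein E receptor. Of fatty acid uptake and binding genes, 1 of 11 was higher and 2 lower. Dbi, the acyl-CoA-binding protein, was at 6944 to 7179 CPM in CBX and 850.2 to 1742 in VISp. Mfsd2a, a transporter of lysophospholipids, was listed at 0 in both CBX mice and was at 188.3 to 721.7 CPM in VISp. Of acyl-CoA synthetases, 3 of 9 were lower, including Acsl6 (-2.31) and Acss2 (-2.61). Of carnitine shuttle and beta-oxidation genes, 2 of 29 were higher (Etfa, 1.08, and Acadl, 0.75) and 4 lower, among them Acaa2 (-1.68) and Slc22a5 (-1.78). Of 10 lipid droplet genes, Mgll, which splits monoacylglycerol, was the one that passed (-2.13).

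In MB/HB against VISp, 12 of the 91 genes were higher and 10 lower, 24.2% in all, beside the 12.3% of all genes. Pltp (4.41) and Apod (3.51) were higher, and so were Sorl1 (1.002), Lrp1 (0.72), Dbi (0.78), Hadhb (0.43) and the droplet coat gene Plin2 (1.27). Lower genes included Mgll (-2.55), Scarb1 (-2.47), Plin3 (-2.31), Lrp8 (-1.57), Acss2 (-0.83), Npc1 (-0.74), Eci2 (-0.73) and Hadh (-0.67). Some markers of other cell types were also higher in MB/HB: 3 of 11 oligodendrocyte, 2 of 7 oligodendrocyte precursor, 3 of 7 endothelial, 3 of 7 mural, 2 of 2 fibroblast-like and 1 of 4 ependymal markers tested, with none of these lower. Of 10 neuron markers tested, 1 was lower and none higher, and none of 9 microglia or 2 choroid plexus markers passed. The part of such RNA in the levels of these genes was not tested.

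Between oligodendrocyte-like and astrocyte-like cells of VISp, 24 of 93 other lipid genes were higher and 49 lower, 78.5% in all, beside the 58.4% of all genes (22.2% higher and 36.2% lower). Lipoprotein and cholesterol genes had 11 of 22 higher and 6 lower, led by Apod (10.73) and Abca8a (6.72), with the cholesterol acyltransferase Soat1 (-4.63) and Abcg4 (-3.12) lower. Carnitine shuttle and beta-oxidation genes had 22 of 29 lower, with Abcd2 (-6.57) and Ppargc1a (-6.49) the lowest, and 1 higher, Hsd17b4 (0.32). Of receptors, 4 of 11 were higher, among them Vldlr (3.05) and Sort1 (1.63), and 7 lower, among them Lrp1 (-5.38) and Lrp8 (-5.14). Of uptake and binding genes, Slc27a4 (1.29) and Dbi (0.90) were among 3 of 11 higher, and Slc27a1 (-4.32) and Mfsd2a (-4.08) were the 2 lower. Acyl-CoA synthetases had 6 of 9 lower, such as Acsl6 (-6.46) and Acss1 (-5.87), and 2 higher, Acsl1 (4.38) and Acsbg2 (0.80). Of 11 droplet genes, 3 were higher, including the triglyceride synthase Dgat2 (4.34) and the lipase cofactor Abhd5 (1.98), and 6 lower, including Mgll (-4.79) and Plin2 (-3.58).

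In neuron-like against astrocyte-like cells, 13 of the 93 genes were higher and 49 lower, 66.7% in all, beside the 47.5% of all genes (28.3% higher and 19.2% lower). Beta-oxidation genes had 26 of 29 lower, such as Hadh (-5.82) and Acaa2 (-5.05), and Cpt1c, the brain form of the gene family of Cpt1a, was the 1 higher (1.46), at 75.6 to 127.2 CPM. The binding protein Fabp3 was at 142.9 to 151.3 CPM in neuron-like and 0 to 4.14 in astrocyte-like cells (6.47). Among synthetases Acsl5 (5.42) and Acsl1 (3.22) were higher and Acss1 (-5.87) and Acsf2 (-3.34) lower. Lpl (4.20) and Abcg1 (3.96) were higher, as were Dgat2 (4.13), Vldlr (1.63) and Slc27a3 (2.60). Slc27a1 (-6.00), Mfsd2a (-8.22), Plin3 (-5.93), Pnpla2 (-5.08), Soat1 (-4.94) and Npc1 (-3.46) were lower. Against oligodendrocyte-like cells 23 were higher and 42 lower, 69.9% in all, beside the 47.6% of all genes (32.8% higher and 14.8% lower). The higher ones included Fabp3 (6.41), Acsl5 (5.72), Ppargc1a (5.265), Lrp8 (4.19) and Lrp1 (4.05), and the lower ones Apod (-11.39), Plin3 (-6.43), Hadh (-5.91), Dbi (-4.75) and Cpt2 (-3.75).

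**Figure D5:**
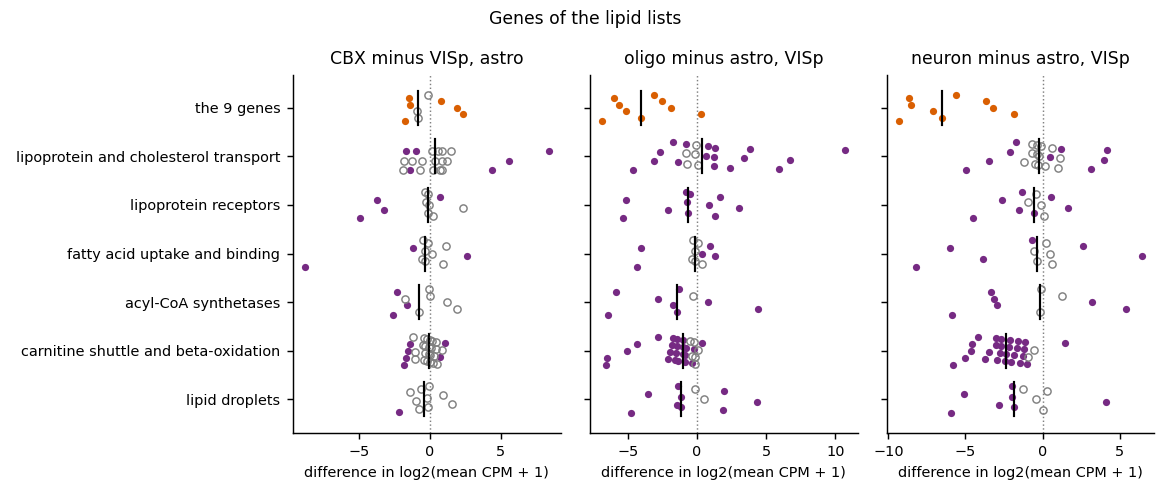
Differences in log2(mean CPM + 1) (horizontal axis) for the 9 genes (orange where they passed) and for the genes of 6 other lipid lists (purple where they passed, open where they did not), with the median of each row as a black bar. Genes listed at 0 in a group are drawn at a fitted value that depends on the pseudocount. Beta-oxidation genes lie mostly left of 0 in both comparisons between classes, with 22 and 26 of 29 lower.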

How the data were processed

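Single SYFP2+ cells were sorted 1 to a tube for SMARTerv4 libraries, per the labels' protocols. STAR and mm10 are named in the submitters' processing notes; the annotation and strand setting are not given in the sources used here. The deposited table holds CPM values for 2040 cells, summing to 1000000 in each. All 9484843 positive values were whole multiples of 1 read within 0.001 reads, which gave the number of reads in every cell. Deposited columns of abundant genes, such as Apoe and Clu, hold the same CPM and were entered as a score only because cells are rows, so that a gene column can sum to over 1000000. Of the 32245 columns, 4900 were used (189 listed genes and 4711 protein-coding genes drawn at random) and 27345 columns were not used, so counts of genes refer to that panel.

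The 2000 most variable genes, without 104 lipid genes, were reduced to 30 principal components, joined to 15 neighbours and split into communities with leidenalg 0.10.2 (resolution 1) in Python 3.11.15; scikit-learn 1.9.0 gave the components and igraph 0.11.9 held the graph. Of 11 clusters, 10 were named from 10 marker lists, and classes given cell by cell matched for 2000 of 2016 cells. No doublet caller was run; cells with RNA of another type were left out as an alternative. CPM was averaged over the cells of a class in each mouse with at least 10 such cells. Genes reaching 1 CPM in 2 or more mice entered limma 3.58.1 (R 4.3.3, two-sided, with trend), run on log2(mean CPM + 1), with Benjamini-Hochberg adjustment at 0.05. The 3 tissues of astrocyte-like cells shared 1 model, and so did the 3 classes of VISp. Fold differences are on the log2(mean CPM + 1) scale and understate the change of low genes. Exact (Clopper-Pearson) 95% intervals on shares cover counting error only. The fits were tested on simulated data with planted changes; in the comparisons with CBX a minority of the planted changes passed.

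The 9 genes and the other lists were chosen with earlier results of these data known. All 9 genes are given in every comparison, and of each other list the 2 genes with the largest positive and the 2 with the largest negative difference among those past the threshold; for likeness, the 3 genes with the highest Pearson r. Apod in oligodendrocyte-like cells, as a level, is named outside that rule, and a gene that the rule names is not reported here.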

Additional observations from a re-analysis of the deposited data

How the results depend on the processing

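Values of the 9 genes under alternatives numbered 1517, and 1480 kept direction and side of the threshold. Of the rest, 20 lost the call, 2 gained it with the same sign and 15 changed sign. Of those that changed sign, 0 had been called in the main fit. Acsl3 in neuron-like against oligodendrocyte-like cells was called after its sign changed (mean of log2 values, 1.205, limma, adjusted p = 0.0147). Clu, Fabp5, Fabp7, Acsl3 and Lcat between CBX and VISp and Clu between MB/HB and VISp passed in all 21 alternatives. With the mean of log2 values over cells, the share of genes called was 25.97% (CBX against VISp), 27.8% (CBX against MB/HB), 74.3% (neuron-like against astrocyte-like) and 72.8% (neuron-like against oligodendrocyte-like), with 2 of the 9 genes called between MB/HB and VISp and 4 between neuron-like and oligodendrocyte-like cells. Under it Fabp7 (-0.35), Acsbg1 (-0.20) and Abca1 (-0.38) changed sign between MB/HB and VISp, Clu (0.17), Abca1 (0.18) and Cpt1a (0.15) between CBX and MB/HB, and Acsl3 (1.205) between neuron-like and oligodendrocyte-like cells; the cause was not tested. With at least 20 cells per mouse, Abca1 in MB/HB was -0.022 and Acsl3 in neuron-like against oligodendrocyte-like cells 0.10. Leaving out 1 mouse at a time gave 6.06% to 12.9% of genes called between CBX and VISp and 4.62% to 10.3% between CBX and MB/HB, the lowest without the CBX mouse of 38 cells and next without that of 43 cells (6.92% and 5.25%). It gave -0.056 to 0.099 for Acsbg1 and -0.0030 to 0.19 for Abca1 in MB/HB against VISp, -0.11 to 0.039 for Clu in CBX against MB/HB, and -0.32 to 0.12 for Acsl3 in neuron-like against oligodendrocyte-like cells. Among vectors, 0.145% of genes passed in astrocyte-like cells with no filter and up to 0.0309% without 1 mouse. In oligodendrocyte-like cells the share was 0.0345% at a pseudocount of 0.1 or with the mean of log2 values, 0.103% with no filter, 0.0358% within AB plates and up to 0.382% without 1 mouse (the MBP_promoter mouse with 29 oligodendrocyte-like cells).

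Centring on the median gene, summing reads per mouse and mouse as a block were added after seeing the data; the sum of reads stands for a planned count test that was not run. With the 2 VISp mice that gave both neuron-like and oligodendrocyte-like cells as a replicate block, 4 of 7 genes tested passed (Fabp7 and Acsbg1 did not, Lcat and Cpt1a were below the filter), 43.2% of all genes did, and Acsl3 was 0.21. Such a fit was made for no other comparison, since no mouse was shared between tissues and at most 1 gave the other pairs of classes. Mouse as a random effect over all VISp mice changed no call of the 9 genes. With 2 CBX mice of 1 vector and 3 neuron mice, precision is limited by the number of mice, and levels near 1 read per cell are not resolved.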

Other observations

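A mouse of eHGT_381h was the one MB/HB mouse with at least 10 neuron-like cells (12 cells), so it enters no test. These cells had 981 CPM of Clu, 153.1 of Fabp5, 117.8 of Acsl3, 53.1 of Apoe and 1.46 of Acsbg1. Abca1, Fabp7, Lcat and Cpt1a were listed at 0. The astrocyte-like cells of the same mouse (32 cells) had 20924 CPM of Apoe and 4372 of Clu. In 8 oligodendrocyte-like cells of MB/HB, from 1 mouse, the median over cells was 1604 CPM for Apoe and 398.2 for Fabp5, and 0 of 8 cells had a read of Fabp7 (exact 95% interval up to 36.9%).

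The 24 cells of the unnamed cluster, which carried markers of more than 1 class, had a median over mice of 2624 CPM of Apoe, 477.7 of Clu and 407.6 of Fabp5, and enter no comparison.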
